A study of Homo sapiens with 2 samples.

Results

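Genes for transcription factors of the urothelium were followed in T24/R cells after treatment with the CDK7 inhibitor THZ1. The 10 genes are TFAP2A, TFAP2C, FOXA1, GATA3, ELF3, PPARG, GRHL2, GRHL3, TP63 and RXRA, taken by symbol from the 58884 genes listed in each count table, where each symbol matched 1 Ensembl gene ID. The labels describe T24/R as epithelial, adherent cells from urinary bladder, and the series title speaks of chemonaïve and chemoresistant urothelial carcinoma without saying which of these T24/R is. The THZ1 group was treated at 1600 nM over 6 h, and the DMSO group received only the solvent over the same time. Each group is a single library without replicates, so differences below lack a replicate check and carry no p-value. The THZ1 library held 18313827 counts and the DMSO library 18445831 counts.

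The urothelium is a layered epithelium in which basal cells, marked by TP63, give rise to luminal cells that make uroplakins. PPARG, which acts as a heterodimer with RXRA, and the factors GATA3, FOXA1, ELF3 and GRHL3 are known for the luminal programme, and the AP-2 and grainyhead-like factors for epithelial identity more widely. THZ1 is a covalent inhibitor of CDK7, a kinase that phosphorylates RNA polymerase II as part of TFIIH, and it also inhibits CDK12 and CDK13.

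Of the 10 genes 3 were called at least 2-fold lower in THZ1. TFAP2C was 22.3-fold lower, FOXA1 4.19-fold lower and TFAP2A 2.56-fold lower, relative to the bulk of the transcriptome. RXRA and TP63 had differences within 2-fold. The other 5 genes had too few counts for a call, and of these PPARG, GRHL2 and ELF3 were at 0 or 1 count in each library. A gene was tested when it had 30 or more counts in at least 1 library. It was called lower or higher when the THZ1 over DMSO ratio was at least 2-fold and its 95% interval excluded 1. Intervals throughout cover counting error only. Among the 5 genes with enough counts, 3 were lower, 2 were neither and 0 were higher. Over all 12457 tested genes 21.3% were lower and 9.7% higher, with a median log2 ratio of −0.03, and over the protein-coding ones 22% and 7.61%. The median over the 5 tested genes was −1.36. In bulk RNA, fewer cells of a type and less RNA per cell cannot be told apart.

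The bases before the transcription start are shown for TFAP2A and FOXA1, which were both lower, and for TP63, which was within 2-fold. They come from RefSeq on GRCh38.p14 and cover the 250 bases upstream of 1 listed start of each gene. Counts per gene do not tell which start was used. For TP63 the only listed start lies at the 5′ end of the gene, and starts inside it were not examined. For TFAP2C, the gene with the lowest ratio, no stretch was available. The TFAP2A stretch is chr6:10419660-10419909 on the minus strand, the FOXA1 stretch chr14:37595250-37595499 on the minus strand, and the TP63 stretch chr3:189631139-189631388 on the plus strand. Each is written 5′ to 3′ in the direction of transcription, and capitals mark every match to the motifs named after them. Part of the FOXA1 stretch lies in an exon of a non-coding FOXA1 transcript in GENCODE 29.
TFAP2A: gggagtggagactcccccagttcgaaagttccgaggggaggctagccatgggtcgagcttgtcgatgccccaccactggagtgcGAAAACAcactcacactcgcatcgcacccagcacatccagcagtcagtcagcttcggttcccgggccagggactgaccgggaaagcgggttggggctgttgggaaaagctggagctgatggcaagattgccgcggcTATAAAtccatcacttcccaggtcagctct
FOXA1: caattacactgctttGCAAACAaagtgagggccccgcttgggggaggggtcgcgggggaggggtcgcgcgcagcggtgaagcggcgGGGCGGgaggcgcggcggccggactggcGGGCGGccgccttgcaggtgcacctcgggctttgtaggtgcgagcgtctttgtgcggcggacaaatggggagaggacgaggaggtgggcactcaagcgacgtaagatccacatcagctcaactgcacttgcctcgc
TP63: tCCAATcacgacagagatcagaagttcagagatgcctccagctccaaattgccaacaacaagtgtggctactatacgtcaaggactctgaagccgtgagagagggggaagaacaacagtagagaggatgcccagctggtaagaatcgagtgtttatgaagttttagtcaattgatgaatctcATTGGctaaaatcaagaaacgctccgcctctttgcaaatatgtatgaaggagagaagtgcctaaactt

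The motifs searched on both strands were the TATA box TATAAA, the CCAAT box CCAAT, the GC box GGGCGG, the AP-2 motif GCCNNNGGC, the forkhead motif TGTTTNC and the GATA motif AGATAA. None of the marked matches overlap. The TFAP2A stretch holds 1 TATA box, whose first base lies 30 bases before the start, and 1 forkhead match on the reverse strand. The FOXA1 stretch holds 2 GC boxes and 1 forkhead match, also on the reverse strand. The TP63 stretch holds 2 CCAAT boxes and none of the other motifs. Of 35116 promoter stretches of the same length, 10.7% hold the TATA box, 32% the CCAAT box, 42.6% the GC box, 19.8% the AP-2 motif, 15.5% the forkhead motif and 9.17% the GATA motif. The GC content was 59.6% for TFAP2A, 67.2% for FOXA1 and 44% for TP63, beside a median of 58% over all stretches. RXRA, also within 2-fold, has 2 listed starts, whose stretches are not shown. The first had 89.2% GC and 6 GC boxes, and the second 64.4% GC, 1 GC box and 1 AP-2 motif. Any link of these features to the ratios was not tested. A match of letters is a description of the stretch and does not show that a factor binds there. TFAP2A has 2 listed starts, and the second, chr6:10412392-10412641 on the minus strand, held no match to any of the 6 motifs.

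The AP-2 factors TFAP2A and TFAP2C bind DNA as dimers and are made by early ectoderm, epithelia and placenta. TFAP2C (ENSG00000087510) lies on chromosome 20 from 56629302 to 56639283 (GRCh38) and spans 9.98 kb. It had 15 counts in the THZ1 library and 497 counts in the DMSO library, which are 0.979 and 22.5 CPM, the counts scaled to effective library size. Its log2 ratio was −4.48 (−5.37 to −3.79), and only 24 of the 12457 tested genes had a lower ratio. TFAP2A (ENSG00000137203, chromosome 6 from 10393186 to 10419659 on GRCh38) had 161 counts in THZ1 and 595 in DMSO, or 10.5 and 27 CPM. Its log2 ratio was −1.36 (−1.62 to −1.11), and 15.3% of tested genes had a lower one.

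The balance between both genes differed between the libraries by more than counting error. The log2 ratio of TFAP2C minus that of TFAP2A was −3.16, with an exact counting interval of −4.05 to −2.37 that does not depend on how the libraries are scaled. TFAP2C was 8.02% of all AP-2 counts in THZ1 (4.56% to 12.9%) and 45.1% in DMSO (42.2% to 48.1%). TFAP2A was 86.1% of AP-2 counts in THZ1 (80.3% to 90.7%) and 54% in DMSO (51% to 57%). Shares here and below are of counts, not corrected for gene length. They compare a gene between the libraries and do not rank genes by level. The remaining AP-2 counts were TFAP2E, with 11 counts in THZ1 and 9 in DMSO, while TFAP2B and TFAP2D had 0 counts in both libraries.

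**Figure D1:**
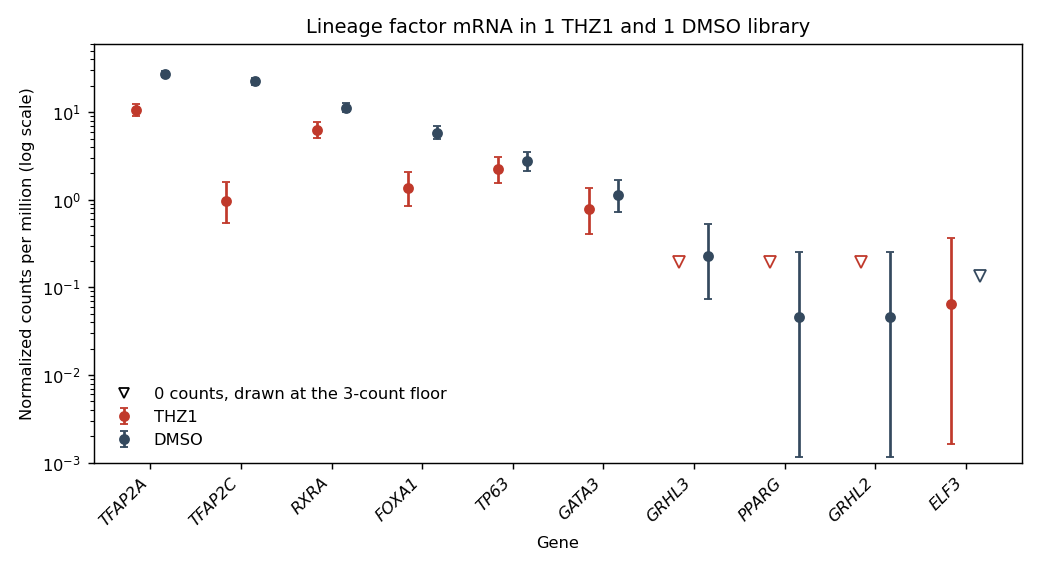
CPM (log scale) of the 10 genes in the THZ1 library (left of each pair) and the DMSO library, with 95% Poisson intervals of counting error. Open triangles mark 0 counts, drawn at the floor of 3 counts. The intervals of the 2 libraries are apart for TFAP2A, TFAP2C, RXRA and FOXA1 and overlap for TP63 and GATA3.

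FOXA1 and GATA3 are pioneer factors, able to bind their sites in closed chromatin, and together with PPARG they can push basal-type bladder cancer cells towards a luminal programme. FOXA1 (ENSG00000129514, chromosome 14 from 37589984 to 37596059) had 21 counts in THZ1 and 129 in DMSO, or 1.37 and 5.85 CPM. Its log2 ratio was −2.07 (−2.83 to −1.42), and 7.22% of tested genes had a lower one. The ratio of TFAP2C minus that of FOXA1 was −2.43 (−3.53 to −1.36), whereas for FOXA1 minus TFAP2A it was −0.73 with an interval that reached nearly to 0 (−1.52 to −0.005). The paralogs FOXA2 and FOXA3 had 0 counts in both libraries, so FOXA1 was the only FOXA gene with counts.

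GATA3 (ENSG00000107485, chromosome 10) had 12 counts in THZ1 and 25 in DMSO, under the minimum for testing. Its log2 ratio was −0.50 with a counting interval of −1.66 to 0.51, and no difference could be detected with so few counts. GATA3 had fewer counts than GATA6 and GATA2 in both libraries. Per exonic length its counting interval lay below theirs in DMSO but overlapped both in THZ1. GATA6 had 24 counts in THZ1 and 246 in DMSO and was lower (log2 ratio −2.81, −3.50 to −2.23), and GATA2 had 31 in THZ1 and 129 in DMSO and was lower too (−1.51, −2.15 to −0.96). GATA1 had 1 count in each library. GATA2 and GATA6 are best known from blood and from endoderm and heart. GATA3 was 17.6% of GATA counts in THZ1 (9.47% to 28.8%) and 6.23% in DMSO (4.07% to 9.07%). The log2 ratio of GATA6 minus that of GATA3 was −2.29 (−3.55 to −0.98), and minus that of GATA2 −1.30 (−2.19 to −0.42).

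ELF3, an epithelial member of the ETS family, had 1 count in THZ1 and 0 in DMSO, at or under the floor of 3 counts in both, so no fold is given. The epithelial paralogs EHF and ELF5 had 0 counts in both libraries. The broadly expressed ELF1 had 76 counts in THZ1 and 364 in DMSO and was lower (−1.73, −2.11 to −1.37), and ELF2 had 287 and 755 counts and a ratio within 2-fold (−0.87, −1.07 to −0.67). ELF4 had 0 counts in both libraries.

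RXRA is the shared partner of many nuclear receptors, and PPARG is the lipid-activated receptor most tied to luminal differentiation. PPARG had 0 counts in THZ1 and 1 in DMSO. The floor of 3 counts is 0.196 CPM in THZ1 and 0.136 CPM in DMSO. RXRA (ENSG00000186350, chromosome 9 from 134317098 to 134440585) had 97 counts in THZ1 and 250 in DMSO, or 6.33 and 11.3 CPM. Its log2 ratio of −0.84 (−1.19 to −0.50) excluded 0 but was within 2-fold, and it was called lower when libraries were scaled to total counts (−1.35).

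RXRB, the other RXR gene with counts, had 143 counts in THZ1 and 383 in DMSO (log2 ratio −0.89, −1.18 to −0.62), and the difference between RXRA and RXRB was 0.06 with an interval of −0.40 to 0.51. RXRA was 40.4% of RXR counts in THZ1 (34.2% to 46.9%) and 39.5% in DMSO (35.7% to 43.4%), and RXRG had 0 counts. With PPARG near 0, PPARD and PPARA made up nearly all PPAR counts. PPARD had 162 counts in THZ1 and 490 in DMSO and was lower (−1.07, −1.34 to −0.81), and PPARA had 112 in THZ1 and 200 in DMSO (−0.31, −0.66 to 0.03).

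The grainyhead-like factors GRHL2 and GRHL3 maintain epithelial junctions, and GRHL3 is needed for umbrella cell differentiation in the mouse bladder. GRHL2 had 0 counts in THZ1 and 1 in DMSO, and GRHL3 had 0 in THZ1 and 5 in DMSO. The counting interval of the GRHL3 ratio included THZ1 being higher, so no fold is given. GRHL1 carried the family, with 64 counts in THZ1 and 121 in DMSO and a log2 ratio of −0.39 (−0.85 to 0.06).

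TP63, which marks basal cells and is needed for stratified epithelia, had 34 counts in THZ1 and 61 in DMSO, or 2.22 and 2.77 CPM. Its log2 ratio was −0.31 (−0.97 to 0.31). The gene (ENSG00000073282, chromosome 3 from 189631416 to 189897279) makes isoforms with and without the full amino-terminal activation domain, which counts per gene do not separate. Its paralog TP73 had 15 counts in THZ1 and 179 in DMSO and a log2 ratio of −3.01 (−3.92 to −2.29), and its ratio minus that of TP63 was −2.72 (−3.81 to −1.70).

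**Figure D2:**
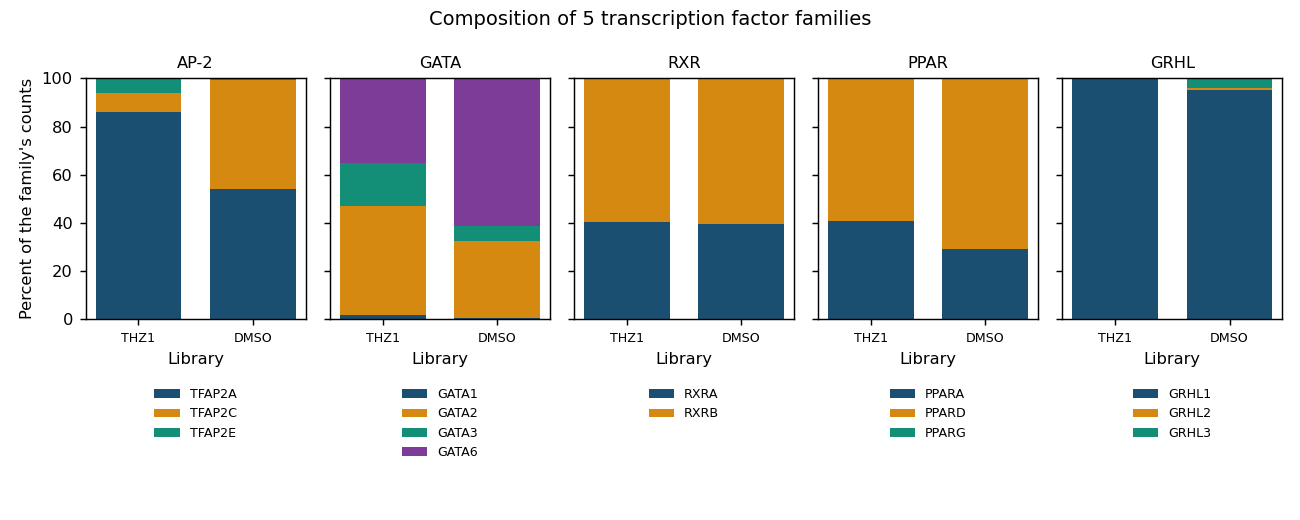
Share of the counts of the AP-2, GATA, RXR, PPAR and GRHL families (percent) taken by each gene in the THZ1 library (left bar) and the DMSO library, for genes with at least 1 count. TFAP2C, GATA6 and PPARD took smaller shares in THZ1 than in DMSO, while the split between RXRA and RXRB was 40.4% and 39.5% RXRA. Shares are not corrected for gene length.

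Over the 22 paralogs of the 10 genes, 12 had counts and 10 were tested. Of these, 5 were lower (TP73, GATA6, ELF1, GATA2 and PPARD), 0 were higher and 5 were neither, with a median log2 ratio of −0.98, beside 21.3% lower over all tested genes. When the whole interval had to lie past 2-fold, 3 were lower. Scaled to total counts 7 were lower, and scaled to the mitochondrially encoded mRNAs all 10 were. All log2 ratios move by −0.51 with total counts and by −1.69 with the mitochondrial mRNAs. On these scalings 34.2% and 80.3% of all tested genes were lower, and 2.95% and 0.706% were higher. TFAP2C, FOXA1 and TFAP2A were lower under each scaling tried. Counts carry no information on the amount of RNA per cell.

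**Figure D3:**
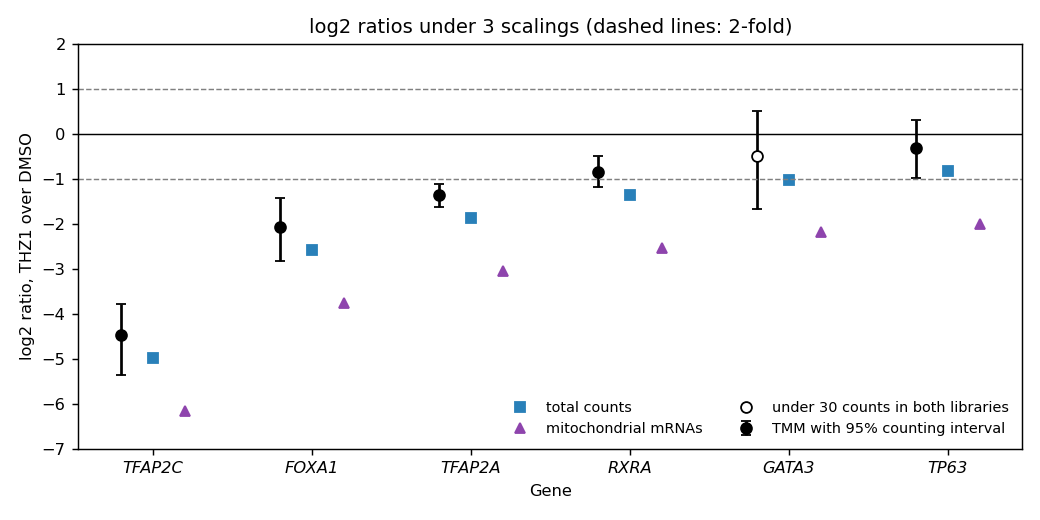
log2 ratio of THZ1 over DMSO for the 6 genes with counts in both libraries and more than 3 in at least 1, under TMM scaling with its 95% counting interval, total counts and mitochondrial mRNAs. TFAP2C, FOXA1 and TFAP2A lie below −1 under all 3, RXRA lies at −0.84, −1.35 and −2.53, and the order of the genes is fixed because a scaling moves all of them alike.

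**Figure D4:**
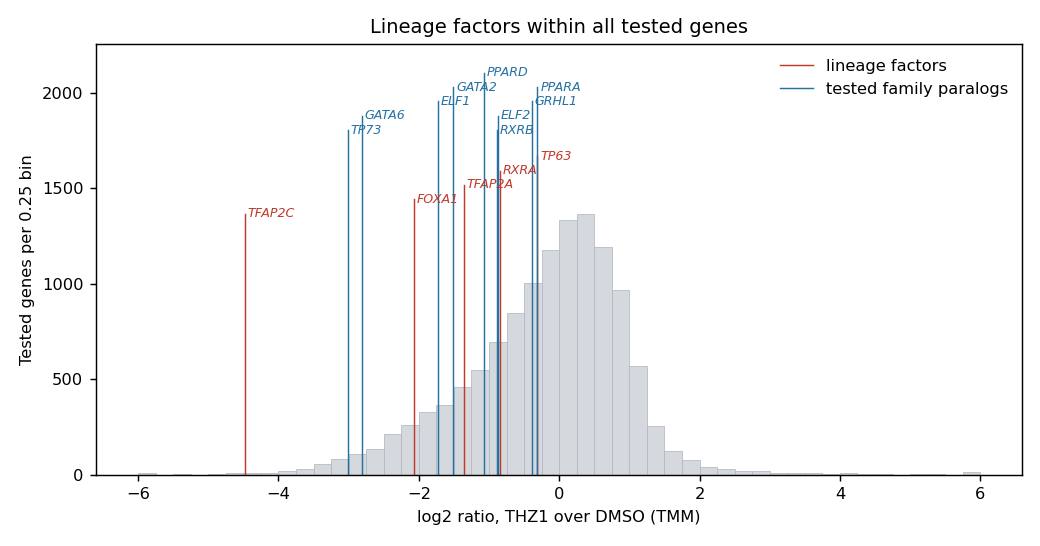
Number of tested genes per bin of the log2 ratio, THZ1 over DMSO, with the 5 tested lineage factors (red) and the tested paralogs named in the text (blue) as lines. Values beyond 6 on either side are counted in the end bins. Every line lies below the median of −0.03, and TFAP2C at −4.48 is the lowest.

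Levels of different genes can be compared only per length. In reads per kilobase of exonic length and CPM scale (RPKM), TFAP2A was the most abundant in THZ1 at 1.27 (1.08 to 1.48), followed by RXRA at 0.571 (0.463 to 0.697), FOXA1 at 0.344 (0.213 to 0.526), TFAP2C at 0.326 (0.182 to 0.537), TP63 at 0.298 (0.206 to 0.416) and GATA3 at 0.228 (0.118 to 0.398). The intervals of the last 4 overlapped, and that of RXRA overlapped those of FOXA1 and TFAP2C. Overlap of intervals does not show that levels are equal. The order in DMSO was TFAP2C (7.5 RPKM, 6.86 to 8.19), TFAP2A (3.26, 3.0 to 3.53), FOXA1 (1.47, 1.23 to 1.75), RXRA (1.02, 0.9 to 1.16), TP63 (0.371, 0.284 to 0.477) and GATA3 (0.33, 0.214 to 0.487). The intervals of TP63 and GATA3 overlapped in DMSO too. Exonic length joins all annotated exons, and per length of the longest transcript TFAP2C (7.86 RPKM) and TFAP2A (7.05 RPKM) lay closer together in DMSO, as did FOXA1 (2.04) and RXRA (1.97). By exonic length TFAP2C ranked above 63.2% of tested genes in DMSO, TFAP2A above 39.8%, FOXA1 above 21.8%, RXRA above 15.4% and TP63 above 3.84%. On that length all but TFAP2C were in the lower part of the range. Ranks per length of the longest transcript were not made.

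By genomic span, TFAP2C (9.98 kb), FOXA1 (6.08 kb) and TFAP2A (26.5 kb) were lower, and RXRA (123 kb) and TP63 (266 kb) were not. Among all tested protein-coding genes under 30 kb 26.2% were lower and 8.91% higher, among those of 30 to 100 kb 20.2% and 5.64%, and among those over 100 kb 15.3% and 8.08%. Paralogs named here were mixed. Among short ones, GATA2 (13.8 kb, −1.51) was lower and RXRB (7.1 kb, −0.89) was within 2-fold. Among long ones, ELF1 (129 kb, −1.73) was lower and ELF2 (149 kb, −0.87) was within 2-fold. The part of gene span in these differences was not tested.

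Some of these genes share sequence with antisense genes, and no strand setting is given in the sources used here. TFAP2A shares 941 exonic bases with the antisense gene TFAP2A-AS2, which had 111 counts in THZ1 and 60 in DMSO. Its log2 ratio was 1.41 (0.95 to 1.89), called higher, but it is 0.89 with total counts and −0.28 with the mitochondrial mRNAs. The ratio of TFAP2A minus that of TFAP2A-AS2 was −2.77 (−3.32 to −2.23), a difference that no scaling alters. TFAP2A-AS1 overlaps by 438 bases and had 12 counts in THZ1 and 11 in DMSO. ELF3-AS1, which overlaps ELF3 by 664 bases, had 5 counts in THZ1 and 30 in DMSO (log2 ratio −1.95, −3.78 to −0.68). STPG1, on the strand opposite GRHL3 with no shared exonic bases, had 218 counts in THZ1 and 773 in DMSO (−1.30, −1.52 to −1.08). TTC6 shares 16 exonic bases with FOXA1 and had 8 counts in THZ1 and 2 in DMSO. GATA3-AS1 and GRHL3-AS1 had 0 counts in both libraries. Without strand, reads in the shared bases cannot be told apart between a gene and its antisense partner.

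The markers of the urothelial lineages differed widely in level. Of 10 luminal markers, 4 were above the floor of 3 counts, with a summed level of 40.5 CPM in THZ1 and 36.4 CPM in DMSO that came mainly from KRT18 and KRT8. UPK1B, UPK3A and KRT20 had 0 counts in both libraries, UPK2 had 2 counts in THZ1 and 0 in DMSO, and UPK1A had 5 and 10. Of 7 basal markers, KRT14 was at 0 in both and KRT5 had 5 counts in THZ1 and 3 in DMSO, while CD44 had 21590 and 27599 counts. KRT6A, with 12 counts in THZ1 and 4 in DMSO, and KRT17, with 4 and 1, were above the floor but under the test minimum. CDH1 had 3 counts in THZ1 and 2 in DMSO, and EPCAM had 3 and 0. The mesenchymal markers VIM, FN1, CDH2 and ZEB1 were all abundant, with a summed 6620 CPM in THZ1 and 3670 CPM in DMSO. VIM, the intermediate filament gene, alone had 84532 counts in THZ1 and 63269 in DMSO. Its log2 ratio was 0.94 with TMM, 0.43 with total counts and −0.75 with the mitochondrial mRNAs, so the higher sum in THZ1 depends on the scaling. The label gives the cells as epithelial. The uroplakin genes UPK1B, UPK2 and UPK3A and CDH1 and EPCAM were thus at or under the floor of 3 counts. UPK1A was above the floor but under the test minimum. KRT18, with 494 counts in THZ1 and 696 in DMSO, KRT8, with 100 and 77 counts, and CD44 were well above the floor. PTPRC and PECAM1, which mark leukocytes and endothelium, had at most 2 counts in either library. The other markers of other cells were above the floor, ACTA2 with 25 counts in THZ1 and 38 in DMSO and COL1A1 with 20 and 30.

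The broader marker lists held few tested genes, and their calls are given beside 21.3% lower and 9.7% higher over all tested genes. Of 18 luminal markers 6 were tested and 0 were called (median −0.09), among them KRT18 (0.03), ERBB2 (−0.22), VSIG2 (0.34) and KRT8 (0.90). Of 16 basal markers 3 were tested and 0 were called (median −0.31), namely CD44 (0.17), EGFR (−0.51) and LAMB3. With total counts 1 gene of each of these lists was lower, and with the mitochondrial mRNAs 5 luminal and 3 basal genes. On these scalings 34.2% and 80.3% of all tested genes were lower. With a minimum of 1 count, 1 basal marker was called higher. Of 14 mesenchymal markers 9 were tested, with a median of 0.39, and 1 was lower, the repressor SNAI2 (−2.40, −3.10 to −1.80; 24 counts in THZ1 and 185 in DMSO). With the mitochondrial mRNAs 7 of the 9 tested mesenchymal markers were lower, beside 80.3% of all tested genes. SNAI1, TWIST1, TWIST2 and COL1A2 had 0 counts in both libraries, and COL3A1 had 9 counts in THZ1 and 5 in DMSO. Of 16 epithelial genes bound by grainyhead-like factors, only LLGL2 had enough counts (46 in THZ1 and 70 in DMSO), and 6 had 0 counts in both libraries. Next in level per length in DMSO were ESRP2, with 5 counts in THZ1 and 11 in DMSO, and CLDN4, with 4 counts in THZ1 and 7 in DMSO. CLDN7 had 5 counts in THZ1 and 0 in DMSO. With a minimum of 1 count, 1 of the 16 genes was called higher.

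Genes known as targets of PPARG and TP63 in other cells were examined next, with few of them tested. Of 12 PPARG targets 4 were tested and 0 were called, with a median of −0.10. FABP4, PDK4, CD36 and CIDEC had 0 counts in both libraries, and CPT1A and PLIN2, which serve fat oxidation and storage, were within 2-fold. With total counts 1 PPARG target was lower, and with the mitochondrial mRNAs all 4 were. On these scalings 34.2% and 80.3% of all tested genes were lower. Of 12 TP63 targets 7 were tested, 0 were lower and 1 was higher, and with the mitochondrial mRNAs 5 were lower. Over all tested genes 21.3% were lower and 9.7% higher with TMM, so 0 lower calls among 4 and 7 genes set neither list apart. The higher gene PERP, a desmosome-associated membrane protein, had 2331 counts in THZ1 and 1497 in DMSO (log2 ratio 1.16, 1.07 to 1.26), but its ratio was 0.65 with total counts and −0.53 with the mitochondrial mRNAs. The targets with the highest levels per length, the integrin genes ITGA3 (0.17) and ITGA6 (0.82) and the plakin gene DST (0.60), were neither.

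AP-2 factors work through cofactors and inhibitors. Of 8 cofactors and inhibitors 7 were tested, 4 were lower and 0 were higher, with a median of −1.58, beside 21.3% lower among all tested genes. The lower genes were the histone acetyltransferase genes EP300 (−2.14, −2.28 to −2.01; 528 counts in THZ1 and 3359 in DMSO) and CREBBP (−2.06, −2.24 to −1.89), and CITED4 (−2.10) and CITED2 (−1.58, −1.88 to −1.29), which bridge AP-2 to those acetyltransferases. The inhibitor KCTD15 (375 counts in THZ1 and 354 in DMSO) and WWOX (254 and 195 counts) were within 2-fold.

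Nuclear receptors that can pair with RXRA were called in both directions. Of 15, 12 were tested, 5 were lower, 2 were higher and 5 were neither, with a median of −0.46, beside 21.3% lower and 9.7% higher over all tested genes. The counts were 10 lower and 0 higher with the mitochondrial mRNAs, 3 and 1 with a minimum of 100 counts, and 2 and 1 when the whole interval had to lie past 2-fold. On the mitochondrial scaling 80.3% of all tested genes were lower and 0.706% higher. Fewer genes were tested at the minimum of 100 counts. The vitamin D receptor gene VDR (−2.67, −3.58 to −1.94; 15 counts in THZ1 and 141 in DMSO), the retinoic acid receptor gene RARA (−2.66, −3.91 to −1.74; 9 and 86 counts), the thyroid hormone receptor gene THRA (−1.49), RARB and PPARD were lower. NR4A2 (2.17, 1.98 to 2.36; 923 counts in THZ1 and 295 in DMSO) and NR4A1 (1.75) were higher, with ratios of 0.48 and 0.06 on the mitochondrial mRNAs. The liver X receptor gene NR1H2 was neither (−0.62). Of 13 nuclear receptor coregulators 11 were tested and 3 were lower, among them PPARGC1B (−2.30, −3.14 to −1.62) and NCOA6 (−1.47, −1.64 to −1.31). NCOR1 had a ratio of 0.16 and MED1 one of −0.91. With total counts 6 coregulators were lower, and with the mitochondrial mRNAs all 11, beside 34.2% and 80.3% of all tested genes.

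Other transcription factors studied in bladder were set beside the 10 genes. Of 18, 11 were tested, 7 were lower, 1 was higher and 3 were neither, with a median of −1.81, beside 21.3% lower and 9.7% higher over all tested genes. Some of the 18 were put on the list with their values known, so that count supports nothing beyond itself. TBX3 (−2.84, −4.01 to −1.97; 10 counts in THZ1 and 108 in DMSO), SOX9 (−2.35), TBX2 (−2.13, −2.73 to −1.60) and KLF4 (−1.84) were the lower genes furthest from 0 among those whose higher count reached 100. ESR1, which had 2 counts in THZ1 and 51 in DMSO, was lower as well. HES1, a Notch target, was higher (1.06, 0.92 to 1.20; 1045 counts in THZ1 and 721 in DMSO) with TMM, but lost the call with DESeq2 size factors and with total counts, where its ratio was 0.55. HIF1A (0.55), FOXM1 (−0.04) and STAT3 (0.35) were neither.

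**Figure D5:**
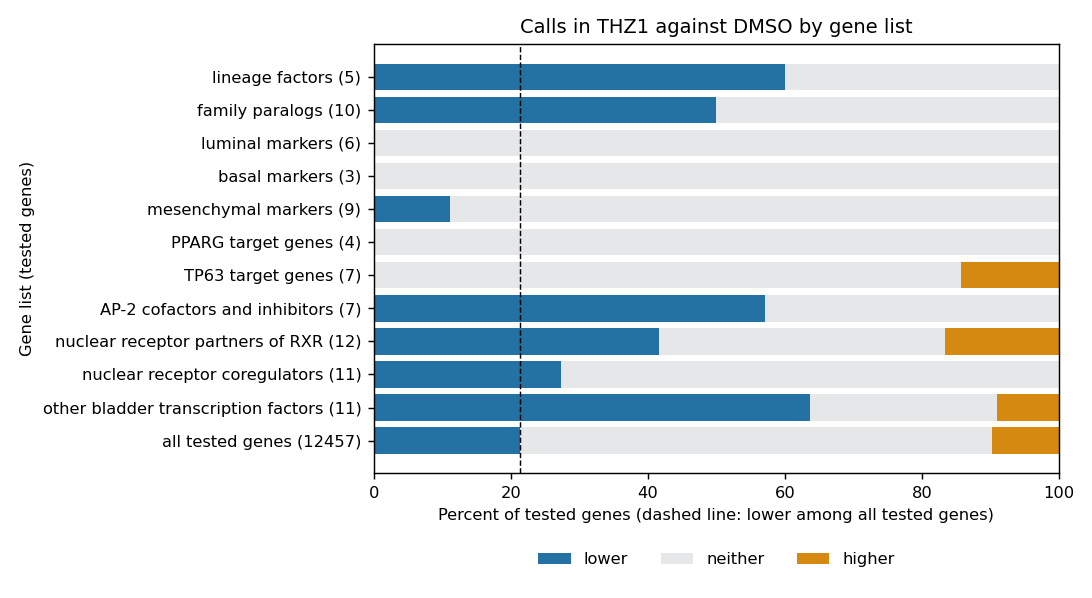
Percent of tested genes called lower, neither or higher in THZ1 against DMSO for the lineage factors, the lists with 3 or more tested genes and all tested genes, with the number tested in brackets. Lower calls were 3 of 5 for the lineage factors, 5 of 10 for paralogs, 4 of 7 for AP-2 cofactors, 5 of 12 for RXR partners, 3 of 11 for coregulators and 7 of 11 for other bladder factors. Lists can share genes, and PPARD is among the lower genes of both the paralogs and the RXR partners. The dashed line marks 21.3%, and since the lists were chosen with earlier results of these data known, their place beside it is a description only.

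The protein-coding genes nearest to the 3 lower members in log2 CPM over both libraries were found by Euclidean distance. For TFAP2A they were RPUSD4 (162 counts in THZ1 and 602 in DMSO, distance 0.019) and TFB2M (165 and 584 counts, distance 0.044). For FOXA1 they were CIAO3 and METTL1 (each 21 counts in THZ1 and 130 in DMSO, distance 0.011). For TFAP2C the nearest genes were farther off, CDC42EP4 (13 counts in THZ1 and 401 in DMSO, distance 0.368) and VPS18 (19 and 397 counts, distance 0.463). With 2 libraries such likeness describes these counts and no more.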

How the data were processed

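RNA of THZ1-treated and DMSO-treated T24/R cells was isolated using TRIzol, and the KAPA mRNA HyperPrep kit served for the libraries, per the labels' protocols. The dose comes from the series' design text. The authors deposited whole-number counts per gene, not normalized, as the values show. Build GRCh38, featureCounts 1.6.0, HISAT2 2.1.0 and Trimmomatic 0.38 appear in the submitters' processing notes. Strand setting, handling of multi-mapping reads and annotation release: not given in the sources used here.

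Symbols came from a symbol table (58472 of 58884 gene IDs) and coordinates, spans and exonic lengths from GENCODE 29, which holds 58611 of the IDs. Promoter stretches came from RefSeq starts (GRCh38.p14) and were examined for 8 of the 10 genes. No stretch was available for TFAP2C, and GRHL2 was left out of the search. Libraries were scaled with TMM factors of the tested genes (edgeR 4.0.16, R 4.3.3), giving effective sizes of 15320940 for THZ1 and 22049153 for DMSO. The test minimum was 30 counts in either library. Log2 ratios use counts plus 0.5. Their 95% intervals derive from Clopper-Pearson limits (exact binomial) on the fraction of a gene's reads that fell in THZ1, as do those of shares. Differences between genes use the exact conditional odds ratio. PCR copies are not told apart from separate molecules, so intervals and the floor of 3 counts describe counting error only. Calls were checked on simulated data that held counting error only, with library sizes known. That check says nothing of variation between replicates or of the choice of scaling.

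All 10 genes are described. Named besides them are paralogs with counts, up to 4 called genes per list furthest from 0 with 100 or more counts, up to 3 genes per list with the highest level per length, the 2 genes nearest to each called member, and antisense or overlapping genes. Names outside this rule, such as markers at or near 0, RARA, RARB, CITED4, KCTD15, WWOX, NR4A1, KRT8, STAT3 and ESR1, were added after their values were seen. A few genes that the rule names are not reported here. The members and lists were chosen with earlier results of these data known. Alternatives were other scalings, among them DESeq2 1.42.0 size factors, other count minimums, 5 counts added, a stricter call and another length. Tables were made with scipy 1.17.1, numpy 2.4.6 and pandas 2.3.3, and figures with matplotlib 3.10.9, in Python 3.11.15.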

Additional observations from a re-analysis of the deposited data

How the results depend on the processing

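TFAP2C, FOXA1 and TFAP2A were called lower and GATA3, RXRA and TP63 kept a ratio below 0 under every alternative that gave a value. With total counts RXRA moved to −1.35 and was called lower. With the mitochondrial mRNAs as reference RXRA moved to −2.53 and TP63 to −2.00, both called lower, so that 5 of the 10 genes were lower, against 3 with TMM. The 11 other lists together, with shared genes counted once, had 24 lower and 4 higher genes with TMM. They had 2 higher with total counts and also when the whole interval had to lie past 2-fold, and 70 lower and 0 higher with the mitochondrial mRNAs. Over all tested genes 2657 were lower and 1208 higher, while total counts gave 4260 lower and 368 higher and the mitochondrial mRNAs 10000 lower and 88 higher. A minimum of 1 count gave 2223 higher, and the stricter call 670 higher. DESeq2 size factors, the upper quartile, a minimum of 100 counts, 5 counts added and TMM over all genes, which was chosen after seeing the data, moved none of these counts past 1.5 times. Per length of the longest transcript, also chosen after seeing the data, the level of TFAP2A in DMSO was 7.05 RPKM, against 3.26 over all exons. No paired analysis was possible because each group had 1 library. Depth limits what can be said of GATA3, GRHL3, ELF3, PPARG and GRHL2, all under 30 counts in both libraries.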
